A study of Mus musculus with 18 samples.

Results

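Mef2a, Mef2c, Mef2d, Six4, Six5, Eya1, Eya3 and Eya4 are 8 genes of the MEF2, sine oculis homeobox (SIX-family) and EYA groups of transcription factors and cofactors, 8 of the 35275 genes in a deposited RNA-seq table of 18 libraries. They were taken by symbol from a list and matched to their Ensembl identifiers, without a cutoff on their levels, and 7 of the 8 were abundant enough to be tested. Members and the gene lists used below were chosen with earlier results of these data known, so their counts are descriptions. The libraries came from C2C12, a mouse myoblast cell line whose stock is labelled PAX7 NEG. Wild-type control cells were set beside cells overexpressing the spliced form of MUNC, a noncoding transcript from the enhancer region of Myod1, and cells overexpressing its genomic form, called MUNC spliced and MUNC genomic here. Each of the 3 was collected in growth medium (GM; 20% FBS, about 80% confluent) and after 3 days in differentiation medium (DM3; 2% HS), which gives 6 groups. The design text names 3 biological replicates of each group. The sources used here do not give the vector, the promoter that drives MUNC, an empty-vector control, or whether a line is 1 clone, so the overexpressed RNA cannot be told apart from other differences between the lines.

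MEF2 proteins are MADS-box transcription factors that bind an A/T-rich site in the promoters of muscle genes and act together with MYOD and myogenin. They are held inactive by class IIa histone deacetylases and released by calcium-dependent kinases, and p38 also activates them. SIX-family proteins are homeodomain factors that bind MEF3 sites, as in the Myog promoter, and EYA proteins are the coactivators and phosphatases that they recruit, since SIX-family factors have little activation domain of their own.

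The starts of 3 of the genes are shown because the genes' levels separated the lines or the media and each holds a match to a site that these families, or the MYOD family, read. They are from RefSeq's promoter table (GRCm38.p6), which held 7 of the 8 genes, without Eya1. All 3 are on the minus strand and are printed 5′ to 3′ in the direction of transcription, with a motif match in capitals. Mef2a is shown at chr7:67372829-67373008, from base -150 to base 30 counted from the start, Six4 at chr12:73113325-73113354, from base -109 to base -80, and Eya4 at chr10:23349929-23349958, from base -15 to base 15.
Mef2a: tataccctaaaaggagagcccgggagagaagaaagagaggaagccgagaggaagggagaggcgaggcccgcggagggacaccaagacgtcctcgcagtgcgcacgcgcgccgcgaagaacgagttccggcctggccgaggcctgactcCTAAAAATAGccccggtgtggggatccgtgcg
Six4: tggcctggggGAAACCTGAtcggccagatc
Eya4: ctgtttctccccCACTTGtgtaagctattt

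In the Mef2a sequence the capitals mark a match to the MEF2 consensus that begins at base -2. In the Six4 sequence they mark the MEF3 site TCAGGTTTC, found on the opposite strand, at base -99. In the Eya4 sequence they mark an E-box, CANNTG, the site read by MYOD and myogenin, at base -3. Six4 and Eya4 each have another entry with a different start. The same E-box lies at base -56 from the other Eya4 start, and the window of the other Six4 start held no MEF3 site. Windows of Mef2c and Eya3 held E-boxes as well. Windows of 300 bases (250 before and 50 after the start) were searched on both strands. Of all 32851 such windows, 3.19% held the MEF2 consensus, 0.429% the MEF3 site and 72.3% an E-box. Some GENCODE transcripts of Six4 and Eya4 start further upstream, so these sites lie downstream of those starts. A match describes these letters and shows no binding.

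The members were described in FPM, the deposited read counts per gene scaled for library size. Depth was 38416702 to 68788327 reads per library, and replicates correlated at r of 0.980 to 0.996 over the tested genes. Differences were tested with limma on log2(FPM + 1) in 1 fit of all 18 libraries and called where the Benjamini-Hochberg adjusted p, over 13869 genes that reached 0.5 FPM in 3 or more libraries, was under 0.05. Log2 differences are the first group minus the second. Of the labelled cell type's markers, Myod1 was near 0 in control cells (mean 0.0285 FPM in GM and 0.0993 FPM in DM3), while Myf5, another myoblast factor, stood at 71.8 ± 8.50 FPM in control GM (SD, n = 3). The summed level of 7 myotube markers ran from 8.12 to 13.3 FPM in control DM3 and from 12.03 to 31.5 FPM in control GM. It was 155 to 832 FPM in MUNC spliced DM3 (median 200 FPM) and 51.4 to 96.4 FPM in MUNC genomic DM3 (median 57.1 FPM). In control this sum did not rise with the change of medium, though single markers in it did. Tnnt3, among the 7, went from a mean of 0.370 FPM in control GM to 6.14 FPM in control DM3. Myog went from 0.0287 FPM to 0.344 FPM there. Differentiation of these cells therefore means DM3 against GM below, and not a measured myotube state. The summed level of 7 myoblast markers was 331 to 463 FPM in control GM and lay above that range in every library of the other groups, up to 1920 FPM in MUNC genomic DM3. A higher sum does not show that its markers rose together. Growing MUNC genomic cells held less Myf5 than growing control cells (means 26.7 and 71.8 FPM). They held more Myod1 (3.84 and 0.0285 FPM) and far more of the desmin gene Des (476 and 24.2 FPM). Des was also higher in MUNC genomic after differentiation (898 against 77.5 FPM). How much each gene added to the sum was not tested. In such bulk libraries, fewer cells of a type and less RNA per cell cannot be told apart.

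Markers of other cell types moved with the groups as well. In control, 4 neural markers summed to 333 to 635 FPM in GM and 21.8 to 26.7 FPM in DM3, and in GM they were at 30.6 to 92.7 FPM in MUNC spliced and 192 to 258 FPM in MUNC genomic. The sum of 6 fibroblast markers was 4501 to 13446 FPM over all libraries, with the highest value in a MUNC spliced GM library and Thy1 under 0.5 FPM throughout. The 4 smooth muscle markers summed to 1194 to 3648 FPM, with Myh11 under 0.5 FPM. Of the rest, the satellite cell marker Pax7, the osteoblast markers Bglap, Ibsp and Alpl, the adipocyte markers Adipoq and Plin1 and the macrophage markers Ptprc, Adgre1 and Csf1r were under 0.5 FPM in every library. The remaining markers of these types, Pax3, Sp7, Pparg, Fabp4 and Cd68, were not. The adipocyte sum ran from 2.83 FPM in a MUNC genomic DM3 library to 12.9 FPM in a MUNC spliced GM library. The macrophage sum ran from 0.854 FPM in MUNC spliced DM3 to 5.53 FPM in control GM. Satellite cell and osteoblast sums reached at most 0.831 and 0.530 FPM. The part of these markers in the members' differences was not tested.

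Among the members, Eya4 and Mef2a were higher in both MUNC lines than in control in both media, and Eya1 was lower in both lines after differentiation. In control cells 6 of the 7 tested members were higher in DM3 than in GM, where 58.2% of all tested genes were called and 29.6% were higher. Eya3 was the most even of the 7, and Mef2c was close to absent.

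**Figure D1:**
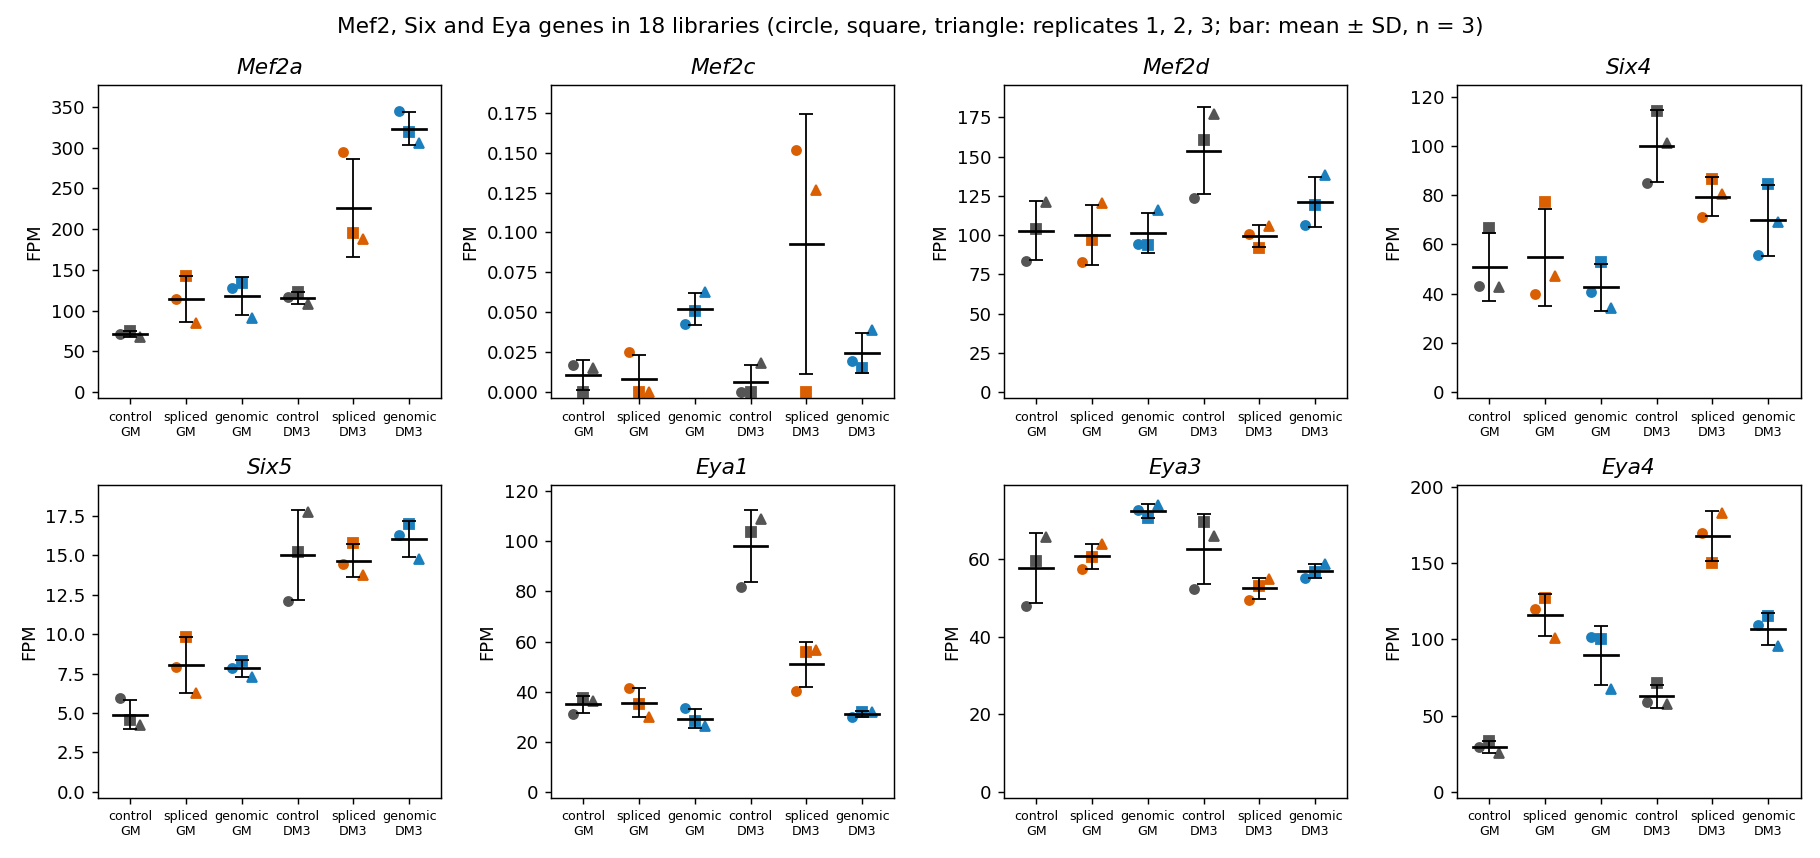
Level of each of the 8 genes in FPM (vertical axes, linear and scaled separately) in each of the 18 libraries, with 1 point per library and the mean ± SD of 3 libraries per group. Eya4 in the 3 control GM libraries (25.5 to 33.1 FPM) lies below every MUNC library, and all Mef2c points lie at 0.152 FPM or lower.

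Mef2a (chr7:67231163-67372858, minus strand, GRCm38) encodes the MEF2 factor that is broadly expressed and rises late in muscle differentiation. In GM it was at 70.9, 74.9 and 67.7 FPM in the control libraries, 115, 143 and 85.4 FPM in MUNC spliced and 128, 134 and 90.9 FPM in MUNC genomic. In DM3 it was at 117, 123 and 108 FPM in control, 295, 195 and 189 FPM in MUNC spliced and 345, 319.8 and 306 FPM in MUNC genomic. Every MUNC library lay above every control library of its medium, and every MUNC genomic DM3 library lay above every MUNC spliced DM3 library. Mef2a rose on differentiation by 0.70 (SE 0.19, limma adjusted p 0.00457) in control, by 0.98 (SE 0.19, limma adjusted p 0.000873) in MUNC spliced and by 1.47 (SE 0.19, limma adjusted p 1.1e-05) in MUNC genomic. The interaction, which tests whether a line's change on differentiation differs from control's, was 0.77 (SE 0.26, limma adjusted p 0.0845) for MUNC genomic, with a 95% interval of 0.21 to 1.33, and was not called. It was 0.28 (SE 0.26, limma adjusted p 0.502) for MUNC spliced. Without MUNC spliced DM3 replicate 1, a library outside that contrast which shares the spread estimate, the MUNC genomic interaction was called (0.77, limma adjusted p 0.0409).

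Against control in GM, Mef2a was higher by 0.65 (SE 0.19, limma adjusted p 0.0135) in MUNC spliced and by 0.70 (SE 0.19, limma adjusted p 0.0107) in MUNC genomic. Both calls depended on replicate 2 of the line, without which limma gave 0.47 (adjusted p 0.0821) and 0.59 (adjusted p 0.0552). In DM3 it was higher by 0.93 (SE 0.19, limma adjusted p 0.000819) in MUNC spliced and by 1.47 (SE 0.19, limma adjusted p 9.56e-06) in MUNC genomic. The MUNC spliced value was raised by replicate 1, which also held the highest myotube marker sum of its group, and was 0.72 without that library, still called. The part of those markers in the result was not tested. Between the lines in DM3, Mef2a was lower in MUNC spliced, with a log2 difference of -0.54 (SE 0.19, limma adjusted p 0.0264). That call was kept in 14 of 18 limma fits that left out 1 library and was lost without MUNC spliced DM3 replicate 2 or 3 (-0.45 and -0.43) or MUNC genomic DM3 replicate 1 or 2 (-0.50 and -0.55). In GM the lines' libraries overlapped, with a difference of -0.05 (SE 0.19, limma adjusted p 0.853). Mef2a shares 302 exon bases with Lysmd4 on the opposite strand, whose level was 5.33 to 12.5 FPM, and the strand setting of the counting is not given in the sources used here.

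Mef2d (chr3:88142372-88172086, plus strand) encodes a MEF2 factor already present in myoblasts. The GM libraries held 83.5, 104 and 121 FPM in control, 83.0, 96.9 and 120.3 FPM in MUNC spliced and 94.5, 93.5 and 116 FPM in MUNC genomic. The DM3 libraries held 124, 160.5 and 177 FPM in control, 101, 91.6 and 106 FPM in MUNC spliced and 106, 119 and 138 FPM in MUNC genomic. The groups overlapped in GM, while in DM3 every MUNC spliced library lay below every control library. Mef2d rose on differentiation in control by 0.58 (SE 0.17, limma adjusted p 0.00730). In MUNC spliced the change was 0.00 (SE 0.17, limma adjusted p 0.987), with a 95% interval of -0.35 to 0.36, and in MUNC genomic it was 0.25 (SE 0.17, limma adjusted p 0.219). The difference between these changes and control's was not called: the interactions were -0.57 (SE 0.24, limma adjusted p 0.111) for MUNC spliced and -0.32 (SE 0.24, limma adjusted p 0.459) for MUNC genomic. Without control DM3 replicate 1, the lowest of its group, the MUNC spliced interaction was called (-0.72, limma adjusted p 0.0437).

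In DM3, Mef2d was lower than control in MUNC spliced, with a log2 difference of -0.61 (SE 0.17, limma adjusted p 0.00737). In MUNC genomic the difference was -0.34 (SE 0.17, limma adjusted p 0.121), with overlapping libraries. With the replicate number as a block in the limma fit, it was called (adjusted p 0.00728), as it was without control DM3 replicate 1 (-0.48, adjusted p 0.0376). Replicate numbers paired the libraries of control DM3 and MUNC genomic DM3. The block was fitted over all 6 groups, however, and pairing was seen in 7 of 15 pairs of groups. In GM the differences from control were -0.04 (SE 0.17, limma adjusted p 0.877) for MUNC spliced and -0.01 (SE 0.17, limma adjusted p 0.974) for MUNC genomic. These lay near 0 and took the other sign when FPM was rescaled. Between the lines the Mef2d difference was -0.28 (SE 0.17, limma adjusted p 0.193) in DM3, where their libraries did not overlap, and -0.03 (SE 0.17, limma adjusted p 0.919) in GM. Mef2d shares 531 exon bases with the antisense gene 1700113A16Rik, which stayed at 0.839 FPM or lower.

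Mef2c (ENSMUSG00000005583; chr13:83504034-83667080, plus strand), the MEF2 factor best known from embryonic muscle and heart, had 32 reads in all 18 libraries together and 0 in 6 of them. The group sums were 2 reads in control GM, 1 in MUNC spliced GM, 9 in MUNC genomic GM, 1 in control DM3, 15 in MUNC spliced DM3 and 4 in MUNC genomic DM3. The highest single library held 8 reads (0.152 FPM). Mef2c was under the filter on low values in every library, so it was left out of the main test and no fold is given. With no filter on low values limma called it in MUNC spliced DM3 against GM (0.113, adjusted p 0.0419) and against control in DM3 (0.117, adjusted p 0.0291), on 8, 0 and 7 reads in the 3 MUNC spliced DM3 libraries. Mef2b, the remaining family gene, had 6 reads in all 18 libraries.

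The MEF2 pool consisted of Mef2a and Mef2d, and levels of different genes were compared per kilobase of exon. The exon length was that of all annotated exons of a gene together (14681 bases for Mef2a and 5985 for Mef2d). Which transcripts were expressed was not examined. The size of a share or ratio, here and for the EYA genes below, depends on these lengths, so groups are compared with each other. Mef2a made up 22.3% ± 3.61 of the family's FPM per kilobase in control GM and 23.8% ± 3.97 in control DM3 (SD, n = 3 each). Its share was 47.6% ± 6.25 in MUNC spliced DM3 and 52.2% ± 4.79 in MUNC genomic DM3 (SD, n = 3 each), and in both lines every DM3 library lay above every control DM3 library. Its GM share was 32.0% ± 8.32 in MUNC spliced and 32.2% ± 7.005 in MUNC genomic (SD, n = 3 each). Replicate 3 of each line lay within the control range in GM. In 6 of 6 groups, however, replicate 3 held the lowest Mef2a and the highest Mef2d. Beside control GM replicate 3, at 18.5%, the same-numbered libraries held 22.4% in MUNC spliced and 24.2% in MUNC genomic. The ratio of Mef2a to Mef2d per kilobase was 0.315 ± 0.0687 in control DM3, 0.928 ± 0.239 in MUNC spliced DM3 and 1.11 ± 0.212 in MUNC genomic DM3 (SD, n = 3 each). An exact permutation test of 3 libraries against 3 cannot give a two-sided p below 0.1, so these ratios and shares are given as descriptions.

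Six4 (chr12:73099609-73113456, minus strand) encodes a SIX-family factor of muscle precursors. Levels in GM were 43.1, 66.5 and 42.8 FPM in control, 39.8, 77.2 and 47.1 FPM in MUNC spliced and 40.7, 52.8 and 34.0 FPM in MUNC genomic. Levels in DM3 were 84.9, 114 and 101 FPM in control, 71.2, 86.6 and 80.4 FPM in MUNC spliced and 55.7, 84.6 and 68.9 FPM in MUNC genomic. Replicate 2 was the highest in 6 of 6 groups. Six4 rose on differentiation in control by 0.98 (SE 0.23, limma adjusted p 0.00188) and in MUNC genomic by 0.70 (SE 0.23, limma adjusted p 0.0191), with groups that did not overlap. In MUNC spliced its change was 0.58 (SE 0.23, limma adjusted p 0.0633), with overlapping groups. That change was called without MUNC spliced GM replicate 2 (0.86, limma adjusted p 0.00661) or without control GM replicate 2 (adjusted p 0.0478). The MUNC genomic call was lost without MUNC genomic GM replicate 1 or 3 (0.69 and 0.56) or MUNC genomic DM3 replicate 2 (0.56).

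In DM3 each MUNC genomic library held less Six4 than each control library, and the difference was -0.52 (SE 0.23, limma adjusted p 0.0858), which did not pass the threshold. With the replicate block in limma it did (adjusted p 0.00321), and the authors' deposited table calls it too, at a log2 fold change of -0.50 and an adjusted p of 0.0132. The difference was also called without MUNC spliced GM replicate 2 (limma adjusted p 0.0438). In MUNC spliced DM3 the difference was -0.32 (SE 0.23, limma adjusted p 0.281), called with the replicate block in limma (adjusted p 0.0426). The GM difference was 0.08 (SE 0.23, limma adjusted p 0.826) for MUNC spliced and -0.24 (SE 0.23, limma adjusted p 0.494) for MUNC genomic. The interactions were -0.40 (SE 0.33, limma adjusted p 0.437) and -0.28 (SE 0.33, limma adjusted p 0.672).

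Six5 (chr7:19094594-19098549, plus strand), which lies 773 bases downstream of Dmpk, the myotonic dystrophy kinase gene, was the lowest of the tested members. Six5 in GM stood at 5.92, 4.53 and 4.27 FPM in control, 7.95, 9.84 and 6.29 FPM in MUNC spliced and 7.89, 8.31 and 7.29 FPM in MUNC genomic. Six5 in DM3 stood at 12.1, 15.2 and 17.8 FPM in control, 14.4, 15.8 and 13.8 FPM in MUNC spliced and 16.3, 17.0 and 14.8 FPM in MUNC genomic. In GM all 6 MUNC libraries lay above the 3 control libraries, and in DM3 the 3 groups overlapped. Six5 rose on differentiation in all 3, by 1.43 (SE 0.16, limma adjusted p 2.51e-06) in control, by 0.81 (SE 0.16, limma adjusted p 0.00116) in MUNC spliced and by 0.95 (SE 0.16, limma adjusted p 0.000155) in MUNC genomic. In GM it was higher than control by 0.60 (SE 0.16, limma adjusted p 0.00863) in MUNC spliced and by 0.59 (SE 0.16, limma adjusted p 0.0127) in MUNC genomic. The first call was lost without MUNC spliced GM replicate 2 (0.46, limma adjusted p 0.0543) and under quantile normalization (0.40, adjusted p 0.0589), the second without control GM replicate 3 (0.51, adjusted p 0.0542).

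In DM3 the Six5 differences were -0.02 (SE 0.16, limma adjusted p 0.938) for MUNC spliced and 0.10 (SE 0.16, limma adjusted p 0.657) for MUNC genomic, with 95% intervals of -0.36 to 0.32 and -0.24 to 0.44. The interactions were -0.62 (SE 0.23, limma adjusted p 0.0770) for MUNC spliced and -0.49 (SE 0.23, limma adjusted p 0.222) for MUNC genomic. The MUNC spliced interaction was called without control DM3 replicate 1 (-0.76) or MUNC spliced GM replicate 3 (-0.77). Dmpk shares no exon base with Six5. It rose in control cells by 1.23 (SE 0.24, limma adjusted p 0.000345) and differed from control in GM by 0.15 (SE 0.24, limma adjusted p 0.644) in MUNC spliced and by -0.02 (SE 0.24, limma adjusted p 0.974) in MUNC genomic. Six2 had 0 reads, Six3 1 read and Six6 6 reads in all 18 libraries together.

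Eya1 (chr1:14168954-14310235, minus strand) encodes an EYA coactivator of SIX-family factors in muscle precursors. Growing cells held Eya1 at 30.9, 37.6 and 36.2 FPM in control, 41.6, 35.2 and 29.9 FPM in MUNC spliced and 33.4, 28.1 and 26.2 FPM in MUNC genomic. Cells at DM3 held it at 81.7, 104 and 109 FPM in control, 40.4, 55.7 and 56.5 FPM in MUNC spliced and 29.8, 31.7 and 31.8 FPM in MUNC genomic. The GM groups overlapped, and in DM3 the 3 groups were apart in the order control, MUNC spliced, MUNC genomic. Eya1 rose on differentiation in control by 1.46 (SE 0.15, limma adjusted p 1.32e-06), the largest log2 change of the 7 tested members there, ahead of Six5 by less than its standard error. In MUNC spliced it rose by 0.50 (SE 0.15, limma adjusted p 0.0181), with overlapping groups, and in MUNC genomic by 0.09 (SE 0.15, limma adjusted p 0.641), with a 95% interval of -0.23 to 0.42. The MUNC spliced call was lost without MUNC spliced GM replicate 3 (0.38) or MUNC spliced DM3 replicate 2 or 3 (0.43 and 0.42).

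Eya1's smaller change on differentiation passed the interaction test in both lines, at -0.96 (SE 0.22, limma adjusted p 0.00970) for MUNC spliced and -1.36 (SE 0.22, limma adjusted p 0.000729) for MUNC genomic. In DM3 Eya1 was lower than control in both lines, with log2 differences of -0.94 (SE 0.15, limma adjusted p 0.000128) for MUNC spliced and -1.61 (SE 0.15, limma adjusted p 3.26e-07) for MUNC genomic. The lines differed there too, with MUNC spliced higher by 0.68 (SE 0.15, limma adjusted p 0.00189). These 5 calls were kept in all 18 limma fits that left out 1 library. In GM the differences from control were 0.02 (SE 0.15, limma adjusted p 0.940) and -0.25 (SE 0.15, limma adjusted p 0.253), with 95% intervals of -0.31 to 0.34 and -0.57 to 0.07.

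Eya3 (chr4:132638987-132724765, plus strand), a broadly expressed EYA gene, varied least of the tested members, with group means that spanned 0.458 on the log2 scale. Before differentiation it stood at 48.0, 59.7 and 65.8 FPM in control, 57.6, 60.6 and 64.1 FPM in MUNC spliced and 72.6, 70.6 and 74.1 FPM in MUNC genomic. After differentiation it stood at 52.4, 69.6 and 66.2 FPM in control, 49.4, 53.2 and 54.9 FPM in MUNC spliced and 55.2, 56.8 and 58.9 FPM in MUNC genomic. The MUNC genomic GM libraries were the 3 highest in GM, and the control groups spread widely. Its change on differentiation was 0.12 (SE 0.12, limma adjusted p 0.410) in control, -0.21 (SE 0.12, limma adjusted p 0.178) in MUNC spliced and -0.34 (SE 0.12, limma adjusted p 0.0217) in MUNC genomic, the last called. The MUNC genomic call was lost without MUNC genomic GM replicate 1 or 3 or MUNC genomic DM3 replicate 1 or 2, where the change ran from -0.34 to -0.32 with limma adjusted p of 0.0515 to 0.0629.

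Against control in GM, Eya3 was higher in MUNC genomic by 0.33 (SE 0.12, limma adjusted p 0.0444), close to the threshold. The call was kept in 5 of 18 limma fits that left out 1 library (control GM replicate 3, control DM3 replicate 1 or 2, MUNC spliced GM replicate 3 or MUNC spliced DM3 replicate 1). The value was 0.21 without control GM replicate 1, and edgeR did not call it (adjusted p 0.0544). The authors' deposited table does not call it either (log2 fold change 0.37, adjusted p 0.125). For MUNC spliced the difference in GM was 0.08 (SE 0.12, limma adjusted p 0.622). In DM3 the differences were -0.24 (SE 0.12, limma adjusted p 0.103) for MUNC spliced and -0.13 (SE 0.12, limma adjusted p 0.416) for MUNC genomic. The first was called with the replicate block in limma (adjusted p 0.0273) and without control DM3 replicate 1 (-0.37). The interactions were -0.32 (SE 0.16, limma adjusted p 0.195) and -0.46 (SE 0.16, limma adjusted p 0.101), the second called without control DM3 replicate 1 (-0.58).

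Eya4 (chr10:23102963-23350786, minus strand), an EYA gene also known from hearing loss and cardiomyopathy, had the largest log2 differences from control of the tested members in GM in both lines and in DM3 in MUNC spliced, but not in MUNC genomic DM3, where Eya1 and Mef2a differed more. Its GM levels were 29.2, 33.1 and 25.5 FPM in control, 120.1, 127 and 101 FPM in MUNC spliced and 101, 100.4 and 67.3 FPM in MUNC genomic. Its DM3 levels were 59.0, 71.4 and 57.9 FPM in control, 169.6, 150.2 and 183 FPM in MUNC spliced and 109, 115 and 95.3 FPM in MUNC genomic. All 6 MUNC libraries lay above the 3 control libraries in each medium. Against control in GM, Eya4 was higher by 1.95 (SE 0.15, limma adjusted p 7.55e-08) in MUNC spliced and by 1.57 (SE 0.15, limma adjusted p 9.08e-07) in MUNC genomic. In DM3 it was higher by 1.40 (SE 0.15, limma adjusted p 2.36e-06) and by 0.76 (SE 0.15, limma adjusted p 0.000900). These 4 calls were kept in all 18 limma fits that left out 1 library. Between the lines, MUNC spliced was higher in DM3 by 0.65 (SE 0.15, limma adjusted p 0.00280), and in GM by 0.39 (SE 0.15, limma adjusted p 0.0610), which did not pass the threshold.

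The Eya4 difference between the lines in GM was called with the replicate block in limma (adjusted p 0.0186) and under 2 other scalings, and also without MUNC spliced GM replicate 3 (0.48) or MUNC genomic GM replicate 1 or 2 (0.49 and 0.48). On differentiation Eya4 rose in control by 1.08 (SE 0.15, limma adjusted p 2.26e-05) and in MUNC spliced by 0.53 (SE 0.15, limma adjusted p 0.0144), and its change in MUNC genomic was 0.27 (SE 0.15, limma adjusted p 0.160). The MUNC spliced call was lost without MUNC spliced GM replicate 3 (0.43) or MUNC spliced DM3 replicate 3 (0.46). The interaction was -0.81 (SE 0.22, limma adjusted p 0.0283) in MUNC genomic, and 7 of 18 fits that left out 1 library lost the call. These left out control GM replicate 1 or 3, control DM3 replicate 2, MUNC genomic GM replicate 1 or 2 or MUNC genomic DM3 replicate 1 or 3, with values from -0.83 to -0.71 and limma adjusted p of 0.0535 to 0.0865. In MUNC spliced it was -0.55 (SE 0.22, limma adjusted p 0.0998), called without MUNC genomic GM replicate 3 (adjusted p 0.0454).

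The make-up of the EYA pool differed between control and both lines. Per kilobase, the ratio of Eya4 to Eya1 was 0.699 ± 0.104 in control GM and 0.537 ± 0.0839 in control DM3 (SD, n = 3 each). It was 2.73 ± 0.305 and 2.80 ± 0.628 in MUNC spliced, and 2.53 ± 0.415 and 2.84 ± 0.314 in MUNC genomic, in GM and DM3 (SD, n = 3 each). Every control library lay below 1 and every MUNC library above 2. Eya1 held 41.3% ± 2.15 of the EYA family in control DM3, against 19.3% ± 2.90 in MUNC spliced DM3 and 15.7% ± 0.748 in MUNC genomic DM3 (SD, n = 3 each). Eya4 held 22.1% ± 2.45, 52.9% ± 3.67 and 44.5% ± 2.97 there (SD, n = 3 each). Eya2 had 16 reads in all 18 libraries, and the corepressor genes Dach1 and Dach2, which can join SIX-family and EYA proteins, had 10 and 7.

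**Figure D2:**
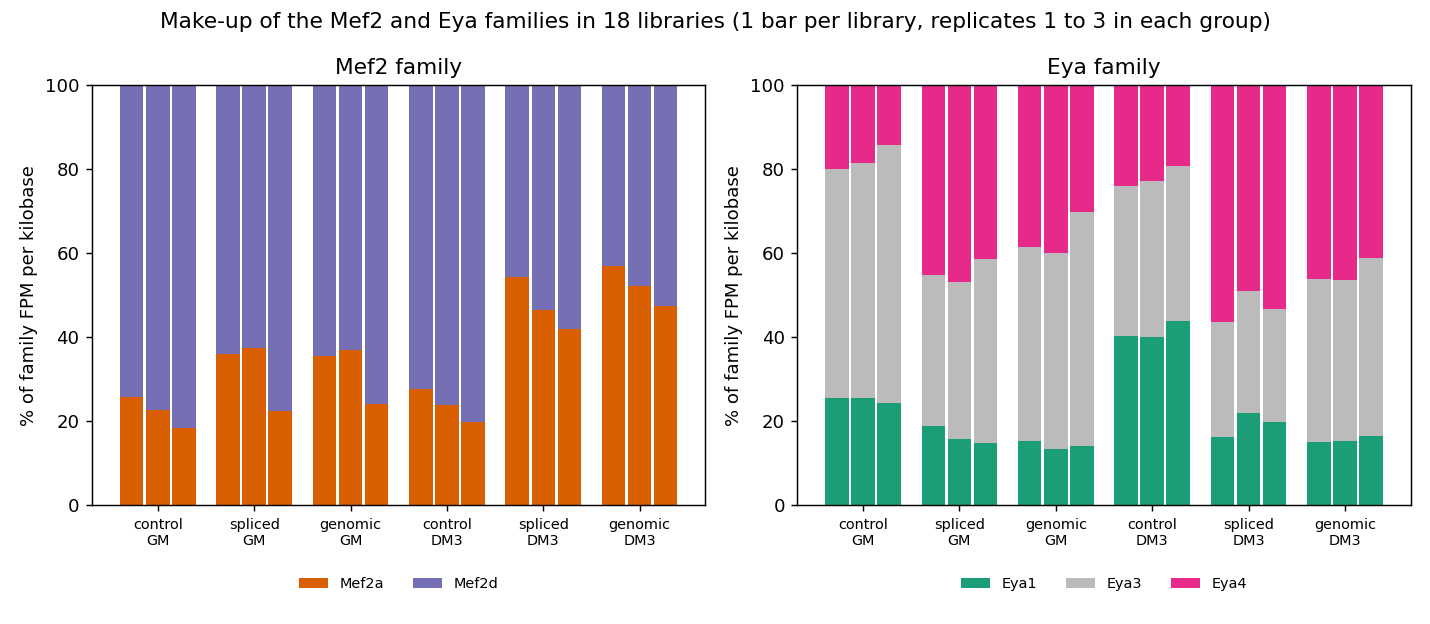
Share of each MEF2 or EYA gene in its family's summed FPM per kilobase of exon (vertical axes, percent), with 1 stacked bar per library and replicates 1 to 3 in order within each group. In the EYA panel the Eya4 segment is larger in all 12 MUNC libraries than in the 6 control libraries, and in the MEF2 panel Mef2a is largest in the MUNC DM3 libraries.

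Counted by comparison, the first question was what 3 days in differentiation medium changed in cells without added MUNC. In control DM3 against GM, 6 of the 7 tested members were called, all higher, where 58.2% of all tested genes were called in either direction, 29.6% higher and 28.6% lower. In MUNC spliced DM3 against GM, 4 of 7 were called, all higher, beside 35.6% of all tested genes in either direction, 17.2% higher and 18.4% lower. In MUNC genomic DM3 against GM, 3 were called higher and 1 lower, beside 51.4% in either direction (26.3% higher and 25.1% lower). The members' median log2 changes were 0.98, 0.53 and 0.27, against medians of 0.02, -0.01 and 0.02 over all tested genes. The interactions called 1 member lower in MUNC spliced (Eya1) and 2 lower in MUNC genomic (Eya1 and Eya4), beside 14.4% and 8.81% of all tested genes in either direction. Of all tested genes 7.43% had a higher and 6.94% a lower interaction in MUNC spliced, and 3.56% a higher and 5.25% a lower one in MUNC genomic.

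The next comparisons set each MUNC line beside control. These comparisons share the control libraries of their medium, so the lines' differences from control are not independent of each other. In GM, 3 members were called higher in MUNC spliced (Mef2a, Six5 and Eya4) and 4 in MUNC genomic (the same 3 genes and Eya3). Of all tested genes, 35.5% were called in MUNC spliced (18.2% higher and 17.3% lower) and 26.8% in MUNC genomic (12.2% higher). In DM3, MUNC spliced had 2 members higher (Mef2a and Eya4) and 2 lower (Mef2d and Eya1), beside 43.3% of all tested genes in either direction (22.3% higher and 21.0% lower). MUNC genomic had the same 2 higher and Eya1 lower, beside 40.3% (19.3% higher and 20.9% lower). With the replicate number as a block in limma, the DM3 counts were 6 for MUNC spliced, adding Six4 and Eya3, and 5 for MUNC genomic, adding Mef2d and Six4. The blocked fit also called more of all tested genes, 53.3% and 50.5%. Between the lines in GM no member was called by limma, 2 had an unadjusted p under 0.05, edgeR called 0 and DESeq2 called 1 (Eya3), beside 35.8% of all tested genes (19.9% higher). The replicate block gave 3 there, beside 47.0% of all tested genes: Six4 (0.32, limma adjusted p 0.0486), Eya3 (-0.25, adjusted p 0.0264) and Eya4 (0.39, adjusted p 0.0186). Between the lines in DM3, Eya1 and Eya4 were higher and Mef2a lower in MUNC spliced, beside 44.2% (23.4% higher and 20.8% lower).

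**Figure D3:**
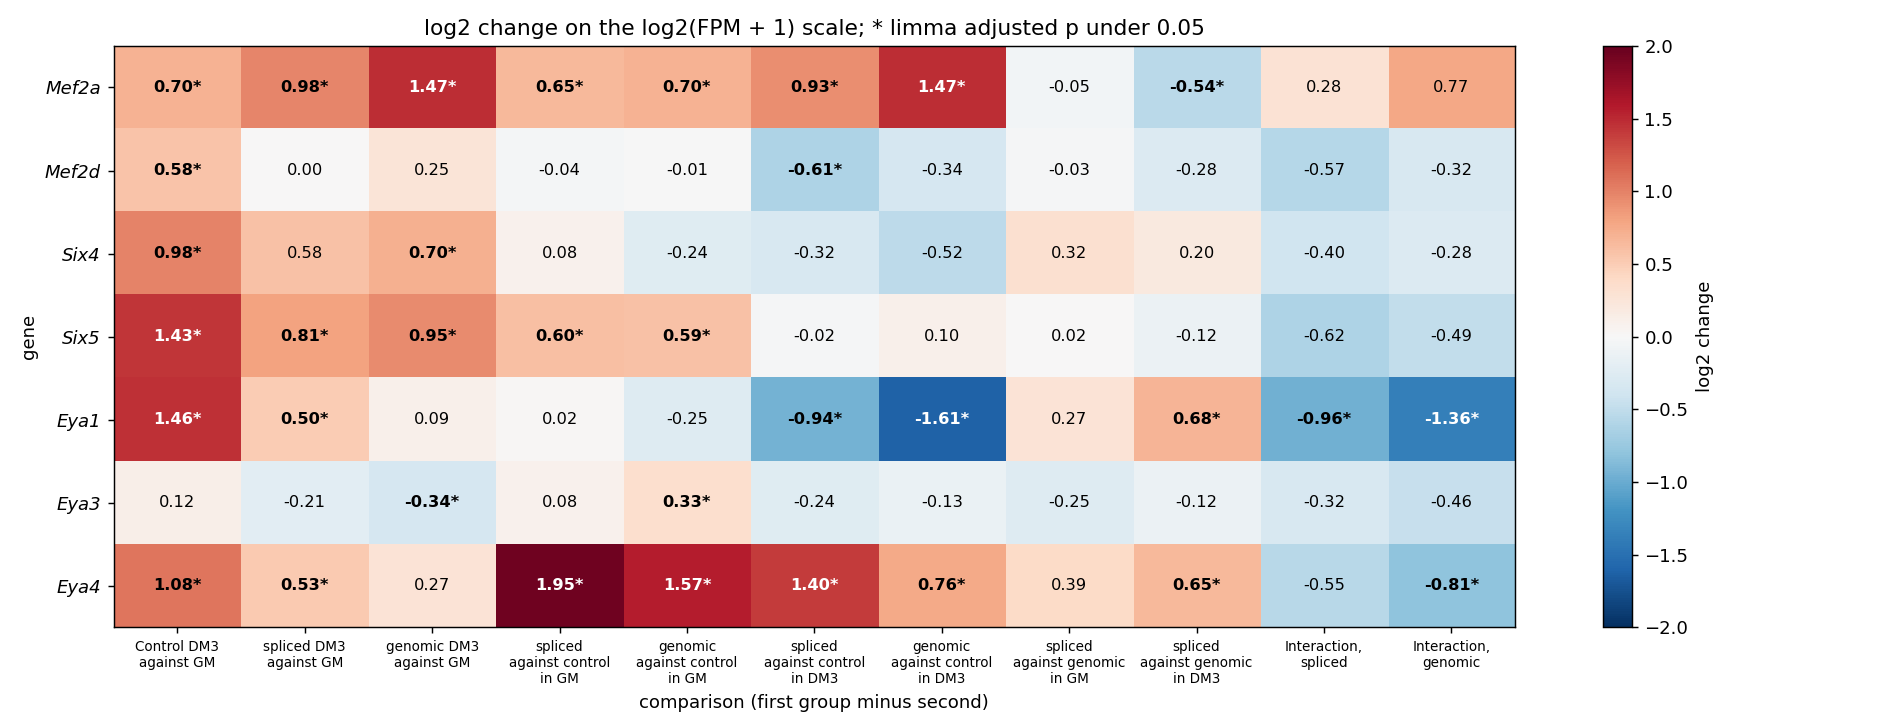
Log2 differences on the log2(FPM + 1) scale of the 7 tested members (rows) in 11 comparisons (columns, first group minus second), with colour from blue (lower) to red (higher) and an asterisk where limma's adjusted p is under 0.05. Eya4 carries an asterisk in all 4 comparisons of a line with control, from 0.76 to 1.95, and Eya1 has its largest negative value, -1.61, in MUNC genomic against control in DM3.

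Of 20 cofactors and regulators of MEF2, all tested, 8 were called higher and 1 lower in control DM3 against GM (median log2 change 0.27), which is 9 called beside 58.2% of all tested genes. The largest were Sik1, a kinase that phosphorylates class IIa deacetylases, at 1.45 (SE 0.27, limma adjusted p 0.000284), and Hdac5, one of those deacetylases, at 1.43 (SE 0.16, limma adjusted p 2.00e-06). Hdac5 went from 72.5 ± 9.94 FPM to 199 ± 41.2 FPM in control and stood at 84.1 ± 7.09 FPM in MUNC spliced and 95.1 ± 1.18 FPM in MUNC genomic at DM3 (SD, n = 3 each). It was lower than control in DM3 in both lines, with log2 differences of -1.21 (SE 0.16, limma adjusted p 1.38e-05) and -1.03 (SE 0.16, limma adjusted p 6.45e-05). In DM3 the cofactor list had 4 higher and 6 lower in MUNC spliced and 2 higher and 6 lower in MUNC genomic against control (medians -0.16 and -0.17), beside 43.3% and 40.3% of all tested genes called. Vgll2, a muscle cofactor of TEAD and MEF2 factors, had 0 reads in the 6 control libraries and stood at 12.8 ± 2.28 FPM in growing and 3.43 ± 1.37 FPM in differentiated MUNC spliced cells, and at 1.52 ± 0.213 FPM in growing MUNC genomic cells (SD, n = 3 each).

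Of 15 target genes of MEF2, 12 were tested, and 5 were called higher and 0 lower in control DM3 against GM (median 0.65), beside 29.6% of all tested genes higher and 28.6% lower. The counts were 8 higher and 0 lower in MUNC spliced (median 1.38) and 6 higher and 0 lower in MUNC genomic (median 0.92), beside 17.2% and 26.3% of all tested genes higher. Nr4a1, an immediate-early nuclear receptor gene, rose in all 3, by 3.42 (SE 0.47, limma adjusted p 1.44e-05) in control, by 3.04 (SE 0.47, limma adjusted p 0.000163) in MUNC spliced and by 3.88 (SE 0.47, limma adjusted p 6.83e-06) in MUNC genomic. Against control in DM3, 7 targets were higher and 1 lower in MUNC spliced and 4 higher and 2 lower in MUNC genomic (medians 0.75 and 0.30), beside 22.3% and 19.3% of all tested genes higher. Targets moved in opposite directions within a line. Ppargc1a, the coactivator of mitochondrial genes, was at 12.1 ± 1.71 FPM (SD, n = 3) in control DM3 but 0.165 ± 0.0551 FPM (SD, n = 3) in MUNC spliced DM3, and the 3 MUNC genomic DM3 libraries had 0 reads. Des, the muscle intermediate filament desmin, was at 77.5 ± 13.9 FPM (SD, n = 3) in control DM3 but 898 ± 99.5 FPM (SD, n = 3) in MUNC genomic DM3, higher by 3.53 (SE 0.34, limma adjusted p 3.94e-07).

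Of 12 target genes of SIX-family factors, 9 were tested, with 4 higher and 2 lower in control DM3 against GM (median 0.38), beside 58.2% of all tested genes called. The largest there were Atp2a1, the fast-fibre calcium pump, at 2.44 (SE 0.44, limma adjusted p 0.000190), and Tnnt3, fast troponin T, at 2.18 (SE 0.52, limma adjusted p 0.00191). The list had 5 higher and 2 lower in MUNC spliced (median 0.97) and 6 higher and 2 lower in MUNC genomic (median 2.13) on differentiation, beside 35.6% and 51.4% of all tested genes called. Against control in DM3 the counts were 5 higher and 2 lower in MUNC spliced (median 2.75) and 4 higher and 2 lower in MUNC genomic (median 0.31), beside 43.3% and 40.3%. In GM against control, cofactors, MEF2 targets and SIX-family targets had 4, 2 and 4 higher and 1, 1 and 3 lower in MUNC spliced. In MUNC genomic they had 4, 1 and 1 higher and 0, 3 and 2 lower. Of all tested genes 35.5% and 26.8% were called in these comparisons. Myf5, a SIX-family target, was lower in MUNC genomic GM than in control, with a log2 difference of -1.39 (SE 0.17, limma adjusted p 1.21e-05). The SIX-family target list holds Myod1 and Myog, whose differences between these libraries were already known when the list was written, so its direction is not independent evidence.

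**Figure D4:**
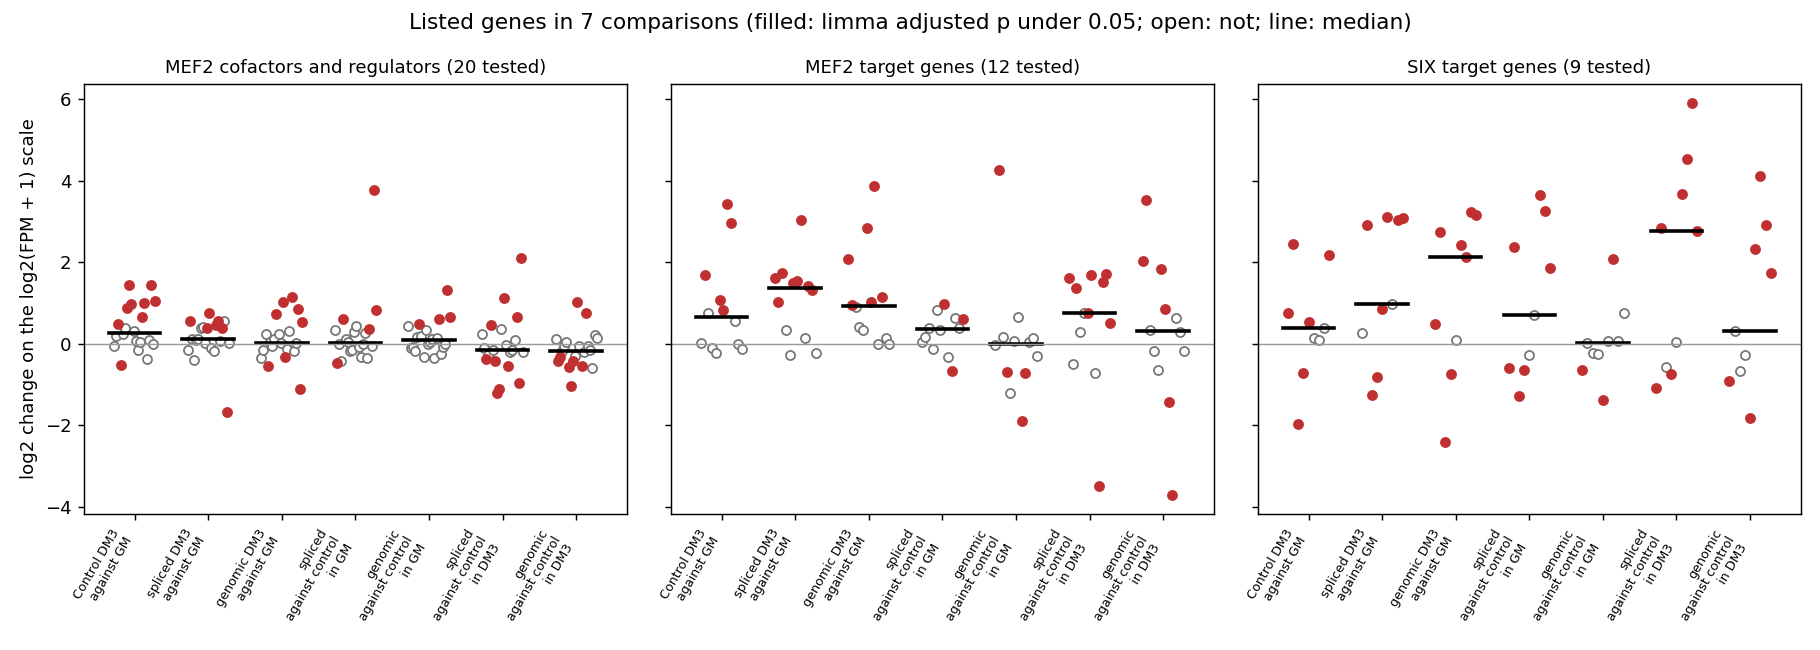
Log2 differences of the tested genes of each list, with 1 point per gene and a bar at the list's median, on the log2(FPM + 1) scale. Medians of the SIX-family target list run from 0.02 for MUNC genomic against control in GM to 2.75 for MUNC spliced against control in DM3, and single genes lie on both sides of 0 in most columns.

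For each tested member, the genes with the most similar profile over the 18 libraries were found among 10378 genes with a mean of at least 5 FPM, by the root mean square difference of centred log2(FPM + 1) values. These 18 values share the media and the lines, so likeness is a description. For Mef2a the nearest were Cacna2d1, a calcium channel subunit gene, Atp13a3 and Cpeb3, at differences of 0.253, 0.273 and 0.275, where Mef2a's own spread was 0.743. For Eya4 they were Gm14124, P2rx7 and Galnt4, at 0.228, 0.332 and 0.335 against an own spread of 0.803. For Eya1 they included Daxx and Shisa5, at 0.214 and 0.239 against 0.607. The nearest gene was Popdc3 for Six5 (0.167 against 0.590), Amer1 for Six4 (0.176 against 0.495), Rxrb for Mef2d (0.115 against 0.288) and Rad54l2 for Eya3 (0.0864 against 0.181). No member was among the 3 nearest genes of another member.

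The authors' deposited tables hold 5 of these comparisons, which gives 35 values for the 7 tested members. Their log2 fold changes had the same sign as limma's in 34 of 35 values. Both called 19, neither called 14, and the 2 that differed were the Six4 and Eya3 values in MUNC genomic given above.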

How the data were processed

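The labels describe poly(A) RNA of 18 C2C12 samples sequenced on an Illumina instrument. The submitters' processing notes name STAR, HTSeq, DESeq2 and the build mm10, and versions, annotation and strand setting are not given in the sources used here. One table of normalized signal (FPM) was deposited by the authors. Dividing each library's values by its smallest step gave whole reads for 100% of values, to within 0.0354 of a read, so depth could be recovered. Per the file headers, the authors' comparison tables hold log2 fold changes, p-values and adjusted p-values, and a mean count and a test statistic, 2 deposited scores that were not used. GENCODE M21 (GRCm38) held 97.8% of the 35275 identifiers and gave positions and exon lengths.

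Groups follow the sample titles, since the source label (myoblast or myotube) named the other state in 9 samples. MUNC's own level was not analysed here, so its overexpression was not checked.

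Limma 3.58.1 (R 4.3.3; lmFit, contrasts.fit and eBayes with trend) was fitted once to log2(FPM + 1) of all 18 libraries, with 12 residual degrees of freedom, over the 13869 genes that reached 0.5 FPM in 3 or more libraries. Fold changes on this scale understate those of low genes. There were 11 comparisons, each adjusted by Benjamini-Hochberg. P-values rest on the spread between samples of the same group, pooled over the 6 groups and moderated across genes. A count of 0 allows 3 reads, at most 0.0757 FPM, counting error only. The code was tested on simulated data.

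The 8 members are named in every comparison. Lists held 8 further family genes, 20 MEF2 cofactors and regulators, 15 MEF2 targets, 12 SIX-family targets and markers of 9 cell types. At most the 2 called genes of largest change, at 1 FPM or more in the higher group, are named per list and comparison. Levels of family genes (1 of these and 1 gene of similar profile are not reported here), of marker genes and of genes neighbouring a member are also given. Members and lists were chosen with earlier results of these data known.

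Whether replicate numbers pair the samples was checked on deviations from group means. Same-numbered libraries correlated from -0.0569 to 0.727, and all 3 pairs exceeded 0.1 in 7 of 15 pairs of groups. These include control DM3 against GM, both lines against control in each medium and the lines in GM. For these, the blocked value stands beside a result where it changed the call. The block was estimated over all 18 libraries in 1 fit, including groups for which pairing was not shown. Alternatives were no filter, a pseudocount of 0.1, equal sums, quantile normalization, edgeR 4.0.16 and DESeq2 1.42.0 on recovered reads, the replicate block, and leaving out each library.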

Additional observations from a re-analysis of the deposited data

Results flagged for a closer look

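The interaction of Eya1 with MUNC spliced was -0.96 on the log2 scale (limma adjusted p 0.0097). Eya1 rose in 3 of 3 control DM3 libraries over all control GM libraries, whereas its MUNC spliced groups overlapped. The interaction of Eya1 with MUNC genomic was -1.36 (limma adjusted p 0.000729), with overlapping MUNC genomic groups. The interaction of Eya4 with MUNC genomic was -0.81 (limma adjusted p 0.0283), with 3 of 3 control DM3 libraries above all control GM libraries and overlapping MUNC genomic groups. This call was kept in 11 of 18 limma fits that left out 1 library, and both Eya1 calls in all 18. Each interaction was marked because the change on differentiation differed between a line and control by a test of the difference itself.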

How the results depend on the processing

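Of 77 member differences, 34 were called, and none of these 34 changed sign under any alternative. In control DM3 against GM the 6 calls were made under every alternative. With all libraries kept, counts of called members moved by over 1.5 times in 4 comparisons and by less in 6. MUNC genomic against control in DM3 gave 5 with the replicate block against 3. The lines in GM gave 1 with equal sums, 1 with quantile normalization, 1 with DESeq2 and 3 with the replicate block against 0. The MUNC spliced interaction gave 2 with DESeq2 and 4 with the replicate block against 1. The MUNC genomic interaction gave 1 with no filter on low values and 4 with the replicate block against 2. The cause was not tested. Where replicate numbers were not shown to pair the samples, the replicate block added Six4 in MUNC spliced DM3 against GM (adjusted p 0.00199), Mef2d in MUNC genomic DM3 against GM (0.0274) and between the lines in DM3 (0.0201). It added Mef2d, Six5 and Eya4 in the MUNC spliced interaction (0.00604, 0.0444 and 0.0307) and Mef2a and Eya3 in the MUNC genomic interaction (0.0186 and 0.0189). The block lost no call, and it also called more of all tested genes in each of the 11 comparisons (16.3% to 65.3%, against 8.81% to 58.2% without it). Smaller moves were to 5 with no filter and with the block in MUNC spliced DM3 against GM (from 4), to 5 with the block in MUNC genomic DM3 against GM (from 4), and to 5 with no filter and 6 with the block in MUNC spliced against control in DM3 (from 4). In GM they were to 3 with edgeR and no filter in MUNC genomic against control (from 4) and to 2 with quantile normalization in MUNC spliced against control (from 3). Between the lines in DM3 they were to 4 with the block and 2 with no filter (from 3).

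With no filter on low values the Mef2a difference between the lines in DM3 and the Eya4 interaction in MUNC genomic missed the threshold (limma adjusted p 0.0528 and 0.0535), as did Eya3 in MUNC genomic against control in GM (0.0608).

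With 1 library left out, counts ran from 2 to 5 in MUNC spliced DM3 against GM, 2 to 4 in MUNC genomic DM3 against GM, 1 to 3 in MUNC spliced and 2 to 4 in MUNC genomic against control in GM. They ran from 4 to 5 in MUNC spliced and 3 to 4 in MUNC genomic against control in DM3, 0 to 1 between the lines in GM, 2 to 3 in DM3 and 1 to 3 in either interaction. Where an arm kept 2 libraries, the spread was shared over all groups.

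Small log2 differences that were not called changed sign. Mef2d in MUNC spliced DM3 against GM was -0.0297 with equal sums and -0.0322 with quantile normalization, and against control in GM 0.0739 and 0.0432. In MUNC genomic against control in GM it was 0.0548 and 0.0163 and, with DESeq2, 0.0122, and between the lines in GM 0.0191 and 0.0268 with those scalings. Eya1 in MUNC spliced against control in GM was -0.0217 with edgeR. Six5 was 0.0246 in MUNC spliced against control in DM3 with equal sums, and between the lines in GM -0.115 with quantile normalization, -0.00808 with edgeR and -0.00435 with DESeq2. Mef2a between the lines in GM was 0.00660 with quantile normalization.

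Leaving out 1 library, ranges that crossed 0 in MUNC spliced against control in GM were -0.180 to 0.0871 for Mef2d, -0.195 to 0.285 for Six4, -0.0981 to 0.134 for Eya1 and -0.0450 to 0.178 for Eya3. Between the lines in GM they were -0.228 to 0.139 for Mef2a, -0.167 to 0.0979 for Mef2d and -0.126 to 0.160 for Six5. Mef2d ran from -0.120 to 0.145 in MUNC spliced DM3 against GM and from -0.152 to 0.114 in MUNC genomic against control in GM. Six5 ran from -0.156 to 0.103 in MUNC spliced and -0.0362 to 0.222 in MUNC genomic against control in DM3, and Eya3 from -0.00886 to 0.239 in control DM3 against GM. Mef2c, at 0.152 FPM or lower in every library, was left out of the main test by the filter. The call added in MUNC spliced with no filter, on differentiation and against control in DM3, was Mef2c. With equal sums the share of higher calls among all called genes was 66.1% against 51.3% in MUNC spliced and 56.2% against 45.6% in MUNC genomic, each against control in GM, and 41.4% against 51.7% in the MUNC spliced interaction.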
